A study of Homo sapiens with 5 samples.

Results

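The 10 genes described here encode intermediate filament proteins and were chosen by name, as the Ensembl gene of each current symbol: VIM, DES and SYNM of mesenchymal and muscle cells, NES and GFAP of neural cells, LMNA of the nuclear lamina, and KRT7, KRT8, KRT18 and KRT19 of simple epithelia. All 10 were found among the 19936 genes of each library. The cells were LX-2, an established line of human hepatic stellate cells, the vitamin A-storing liver cells that turn into matrix-producing myofibroblasts in fibrosis. Their RNA was sequenced 48 h after transfection with siRNA against LIX1L (siLIX1L, 3 libraries) or with control siRNA (2 libraries). No other treatment or allele is given in the labels, and neither the number and sequence of the siRNAs nor separate cultures within a group are stated, so the spread behind each p-value may be no more than technical.

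Intermediate filaments are built from rod-shaped proteins that pair along a coiled coil and assemble into rope-like fibres. Vimentin and desmin can each form filaments alone, whereas keratins need a type II partner (KRT7, KRT8) and a type I partner (KRT18, KRT19). Nestin and synemin assemble only with such partners, and lamin A/C lines the inner nuclear membrane. In liver, KRT8 and KRT18 are the keratins of hepatocytes, KRT7 and KRT19 are added in bile duct cells, and desmin, vimentin and GFAP are used to recognise stellate cells, desmin and GFAP mainly in rodents.

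LIX1L had 98, 107 and 65 reads in siLIX1L 1, 2 and 3, against 393 and 649 in control 1 and 2. The library totals were 14856104 to 17811940 reads with siLIX1L and 14877647 to 18294056 with control siRNA. SiLIX1L 1 and 2 stood closest together of all pairs, with an SD of 0.12 of the log2(FPKM + 1) difference over the genes tested, against 0.33 to 0.59 in every other pair, and the controls differed from each other by 0.49. SiLIX1L 3 has a later GEO accession, apart from the run of consecutive accessions of the other 4 libraries. The labels do not say what this difference stands for, and the VIM difference and the class shares are also given without siLIX1L 3. Mitochondrially encoded genes took 1.08 to 1.29% of reads with siLIX1L and 2.24 to 3.35% with control siRNA. Of 12 stellate or mesenchymal markers, 11 had reads, led by COL1A1, which encodes the main chain of type I collagen, with 40959 to 80772 reads with siLIX1L and 26968 to 88083 with control siRNA. LRAT, the enzyme that stores vitamin A as retinyl esters, had 0 reads in all 5 libraries, where 0 allows up to 0.202 RPM (reads scaled to the library total). The summed level of this marker list was 4339 to 5984 RPM with siLIX1L and 2841 to 7469 RPM in the controls.

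The files give FPKM over the whole gene span with its introns, which does not allow levels of different genes to be compared. KRT8 spans 52.8 kb for a longest coding transcript of 2.44 kb and LMNA 57.5 kb for 3.19 kb, but NES spans 8.63 kb for 5.56 kb. Reads were therefore recovered from the deposited FPKM and divided by the length of the longest coding transcript. This value, RPM per kb of mRNA, is called the level below, and a difference between groups is given on the deposited FPKM.

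For 3 members the sequence before the start of transcription is shown, because they stand for a high, a low and a nearly absent transcript and their RefSeq start lies within 50 bases of that of the principal transcript. Each is 250 bases long, ends at the base before the RefSeq start on GRCh38.p14 and reads 5′ to 3′ on the gene's strand. Capitals mark a GC box (GGGCGG) or a CCAAT box (CCAAT) on either strand. The windows are VIM at chr10:17227991-17228240 (plus strand), SYNM at chr15:99104830-99105079 (plus strand) and NES at chr1:156677408-156677657 (minus strand).
VIM: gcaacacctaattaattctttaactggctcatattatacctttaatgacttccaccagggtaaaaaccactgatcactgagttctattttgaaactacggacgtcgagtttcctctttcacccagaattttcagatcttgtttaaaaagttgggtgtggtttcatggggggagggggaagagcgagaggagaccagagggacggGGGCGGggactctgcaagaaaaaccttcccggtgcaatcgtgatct
SYNM: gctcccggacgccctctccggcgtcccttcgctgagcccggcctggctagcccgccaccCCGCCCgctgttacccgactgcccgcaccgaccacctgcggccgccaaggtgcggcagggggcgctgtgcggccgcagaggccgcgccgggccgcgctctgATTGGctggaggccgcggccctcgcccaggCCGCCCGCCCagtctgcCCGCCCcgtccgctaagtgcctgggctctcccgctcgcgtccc
NES: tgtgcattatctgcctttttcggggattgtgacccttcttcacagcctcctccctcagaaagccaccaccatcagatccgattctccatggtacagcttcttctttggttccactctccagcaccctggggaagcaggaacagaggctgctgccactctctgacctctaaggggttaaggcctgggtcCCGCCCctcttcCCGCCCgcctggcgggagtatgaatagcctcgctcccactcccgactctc
The SYNM window was the richest in CpG of these 3, with 34 CpG and 78.8% G or C, against 8 CpG each in the VIM and NES windows and a median of 11 over all 35116 RefSeq windows of this length. VIM held 1 GC box, SYNM 4, of which a pair overlap, and NES 2, and 42.6% of all windows held at least 1. SYNM alone of the 3 held a CCAAT box, found in 32.01% of all windows. None of the 3 held the TATA letters TATAAA (10.7% of all windows) or the AP-1 letters TGANTCA (6.57%). These matches describe letters only, and the order of the 3 levels given next does not follow the CpG count.

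The filament transcripts fell into 3 tiers in both groups. VIM, LMNA, KRT8 and KRT18 stood at levels between 77.9 and 589 in every library, SYNM and KRT7 between 0.604 and 2.34, and GFAP, NES, KRT19 and DES at or below 0.316. By the mean over all 5 libraries, VIM ranked 108th and LMNA 113th of 19636 genes, KRT8 388th and KRT18 437th. Simple epithelial keratins were thus not minor transcripts beside vimentin in these mesenchymal cells, while the stellate markers desmin and GFAP were close to the limit of detection.

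**Figure D1:**
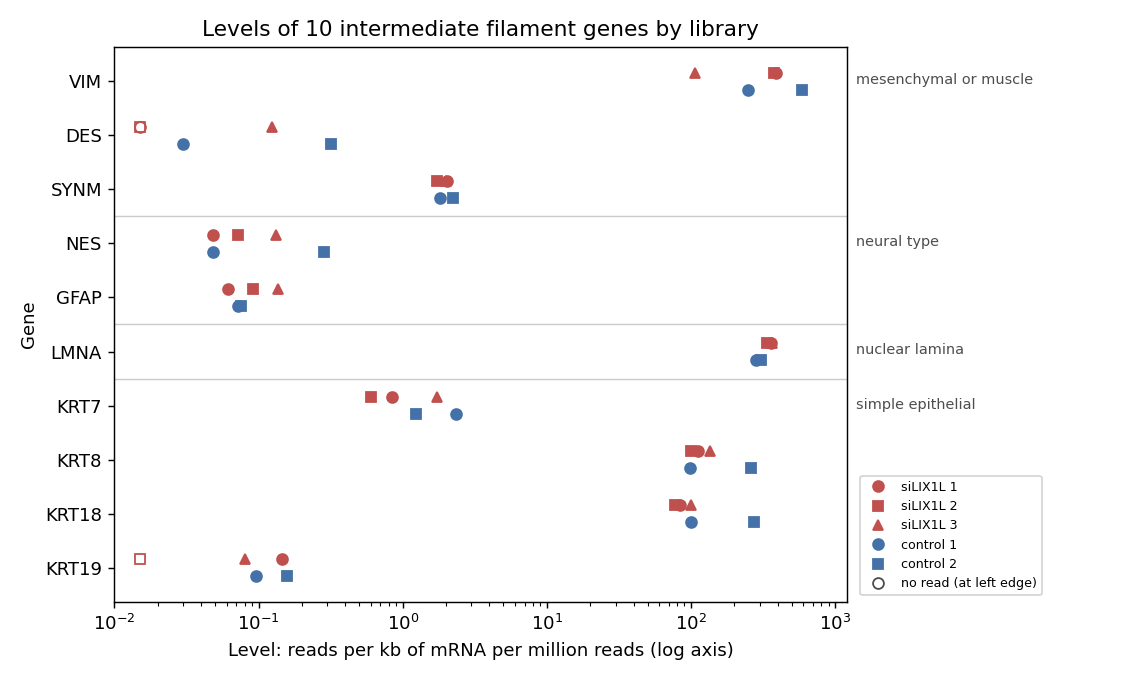
Level of each gene in each library, in RPM per kb of mRNA on a log axis, with siLIX1L in red above control in blue. VIM, LMNA, KRT8 and KRT18 lie between 77.9 and 589, SYNM and KRT7 between 0.604 and 2.34, and the other 4 genes at or below 0.316. Open symbols mark libraries without a read.

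Within the top tier the order was not fixed. After LIX1L siRNA the mean level was 353 ± 15.1 for LMNA, 292 ± 161 for VIM, 116 ± 18.04 for KRT8 and 87.5 ± 11.5 for KRT18 (SD, n = 3). In the controls it was 418.5 ± 241 for VIM, 293 ± 15.9 for LMNA, 187 ± 124 for KRT18 and 179 ± 114 for KRT8 (SD, n = 2). Neighbours in each order overlapped in their ranges, except that LMNA lay above KRT18 in both controls. The step down from the keratins to SYNM was free of overlap in both groups. SYNM and KRT7 overlapped, and so did GFAP, NES, KRT19 and DES after LIX1L siRNA.

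Of the summed level of the 10 genes, mesenchymal and muscle filaments made up 41.3, 42.5 and 15.3% in siLIX1L 1, 2 and 3, against 34.1 and 41.3% in control 1 and 2. Simple epithelial keratins made up 20.8, 19.9 and 33.4% in siLIX1L 1, 2 and 3, against 27.4 and 37.4% in the controls. Nearly all of the first class was VIM and nearly all of the second KRT8 and KRT18. The lamina gene LMNA took 37.9, 37.6 and 51.2% with siLIX1L and 38.5 and 21.3% in the controls. Neural-type filaments were at or below 0.038% in each library. All 4 shares overlapped between the groups. Without siLIX1L 3, the mean share with siLIX1L was 41.9% for mesenchymal and muscle filaments, 37.7% for the lamina and 20.3% for simple epithelial keratins. On the deposited FPKM the LMNA share was 15.9% with siLIX1L and 9.56% in the controls, because its gene span is 18.03 times its transcript.

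**Figure D2:**
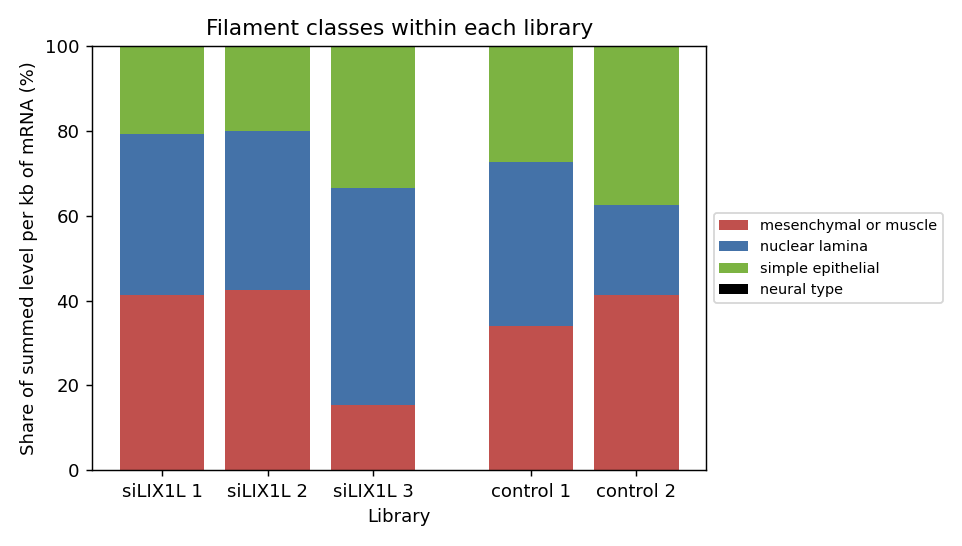
Share of each filament class in the summed level of the 10 genes, in percent, for siLIX1L 1 to 3 and control 1 and 2. Mesenchymal and muscle filaments fill 15.3 to 42.5% with siLIX1L and 34.1 to 41.3% with control siRNA. Neural-type filaments, at or below 0.038%, are too few to be seen.

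None of the 10 genes passed the test for a difference between LIX1L siRNA and control siRNA. Only VIM, LMNA, KRT8 and KRT18 reached the minimum of 1 FPKM in 2 libraries, and 0 of these 4 passed limma's adjusted p of 0.05 (0 at an unadjusted p under 0.05). Of all 6464 genes tested, 1.87% passed, 0.743% higher and 1.13% lower, and 1785 were under an unadjusted limma p of 0.05. With edgeR 0 of 7 members passed, where edgeR called 1.44% of all genes (0.56% higher, 0.883% lower). With DESeq2, which gave DES and KRT19 no adjusted p, 0 of 10 passed, where DESeq2 called 9.9% of all genes (4.99% higher, 4.91% lower). KRT18 was the 1 member under an unadjusted p of 0.05 in each. So were 3395 of 13026 genes with edgeR and 3522 of 16905 with DESeq2. In RNA from bulk cultures, fewer cells with a transcript and less transcript per cell cannot be told apart.

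VIM (ENSG00000026025, GRCh38 chromosome 10, 17228259 to 17237593, plus strand) encodes vimentin, the main filament of mesenchymal cells. It had 89.5, 86.4 and 24.3 FPKM in siLIX1L 1, 2 and 3, against 56.7 and 134.8 FPKM in control 1 and 2. SiLIX1L 3 was the lowest and control 2 the highest of the 5 libraries, and the groups overlapped. The mean was 66.8 ± 36.8 FPKM (SD, n = 3) after LIX1L siRNA and 95.7 ± 55.2 FPKM (SD, n = 2) in the controls, giving -0.60 in log2(FPKM + 1) units (SE 0.64, limma adjusted p = 0.577). The sign turned without control 2 (0.021) and without siLIX1L 3 (0.0073).

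The spread of VIM lay within the groups. SiLIX1L 3 held 3.61-fold less VIM than the mean of siLIX1L 1 and 2, and only 16 of the 6464 genes tested were that low or lower there. The 14 genes of a mesenchymal programme were mixed there. Their sum was 3092, 3414 and 3290 RPM in siLIX1L 1, 2 and 3, against 2794 and 2424 RPM in control 1 and 2, but 74.0 to 85.1% of it was FN1 (fibronectin). Without FN1 the sum was 533, 543 and 489 RPM in siLIX1L 1, 2 and 3, against 694 and 630 RPM in the controls. In siLIX1L 3, 7 of the 14 genes were below both siLIX1L 1 and 2: the growth factor receptors PDGFRA and PDGFRB and the transcription factors SNAI2, TWIST1, TWIST2, ZEB1 and ZEB2. CDH2, S100A4, SNAI1 and THY1 were instead above both, and CDH11, FN1 and PRRX1 lay between them. CDH2 had 81.9, 83.8 and 109.4 RPM in siLIX1L 1, 2 and 3, against 185.3 and 94.8 RPM in the controls. The median ratio of siLIX1L 3 to the mean of siLIX1L 1 and 2 was 0.99 over all 6464 genes tested. That median does not give the share of all genes below both libraries, so whether 7 of 14 is unusual was not tested. SNAI2 had 57.6, 52.04 and 24.6 RPM in siLIX1L 1, 2 and 3, against 59.1 and 24.8 RPM in the controls. TWIST1 had 15.2, 13.04 and 7.13 RPM in siLIX1L 1, 2 and 3, against 12.3 and 21.8 RPM in the controls. PDGFRA had 4.51, 4.44 and 2.19 RPM in siLIX1L 1, 2 and 3, against 4.91 and 6.72 RPM in the controls. PDGFRB had 54.3, 60.0 and 44.7 RPM with siLIX1L, against 46.6 and 113.3 RPM in the controls. PDGFRA, PDGFRB and TWIST1 thus shared with VIM their lowest value in siLIX1L 3 and their highest in control 2. Their low value in siLIX1L 3 follows in part from the choice of genes below siLIX1L 1 and 2 there. SNAI2, TWIST2, ZEB1 and ZEB2 were instead lower in control 2 than in control 1, and SNAI2 was about as low in control 2 as in siLIX1L 3. The part of these genes or of the separate accession in the VIM value was not tested.

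**Figure D3:**
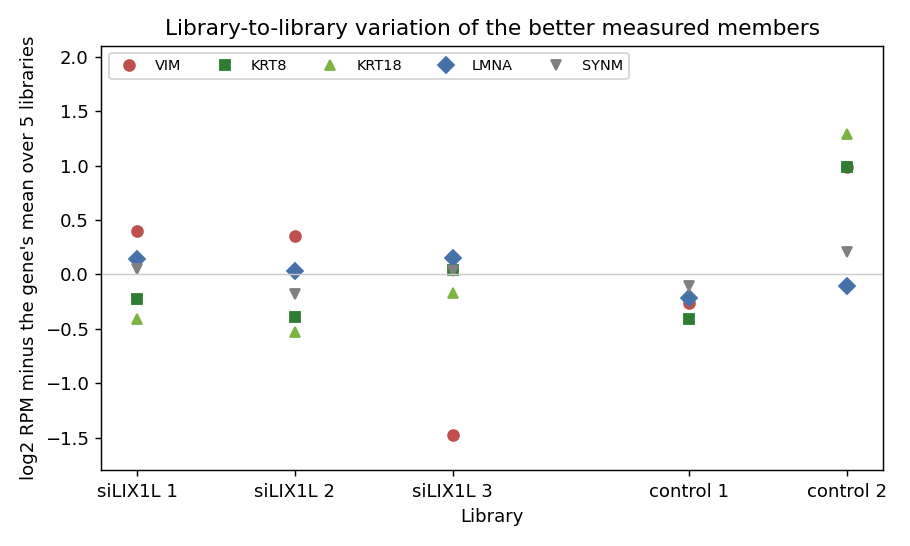
Log2 RPM of VIM, KRT8, KRT18, LMNA and SYNM in each library, relative to the gene's mean over the 5 libraries. VIM is low in siLIX1L 3, and VIM, KRT8 and KRT18 are high in control 2, while LMNA and SYNM vary little.

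The 3 genes with the profile nearest to VIM over the 5 libraries, out of 4375 with a mean of at least 2 FPKM, were NR2F1, PSRC1 and PPIB. Nearness was the Euclidean distance of centred log2(FPKM + 1) values, at 0.60, 0.65 and 0.72, against a median of 1.89 over all candidates. NR2F1, an orphan nuclear receptor, had 11.6, 10.6 and 4.64 FPKM in siLIX1L 1, 2 and 3, against 7.88 and 19.05 FPKM in the controls. PSRC1, a microtubule-associated protein, had 10.6, 9.23 and 4.24 FPKM with siLIX1L, against 7.87 and 16.7 FPKM in the controls. PPIB, a prolyl isomerase of the endoplasmic reticulum, had 11.8, 10.2 and 4.996 FPKM with siLIX1L, against 8.12 and 17.02 FPKM in the controls. All 3 were picked by nearness to the VIM profile. Their distances below the median, low value in siLIX1L 3 and high value in control 2 therefore follow from the choice.

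SYNM (ENSG00000182253, chromosome 15) encodes synemin, which links vimentin or desmin filaments to actin-based attachment sites. It had 222, 192 and 263 reads in siLIX1L 1, 2 and 3, against 199 and 304 in control 1 and 2. It was among the steadiest members, at a level of 1.91 ± 0.17 (SD, n = 3) with siLIX1L and 2.03 ± 0.31 (SD, n = 2) in the controls. The groups overlapped, and edgeR gave a log2 fold change of -0.10 (adjusted p = 0.811).

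DES (ENSG00000175084, chromosome 2), the desmin gene, had 0, 0 and 5 reads in siLIX1L 1, 2 and 3, against 1 and 13 in the controls. Most of its reads were thus in control 2, where the exact 95% interval of the count is 6.92 to 22.2. The pooled rate with siLIX1L was 0.248 of that in the controls, with an exact 95% interval of 0.070 to 0.729 that covers counting error only, and the groups overlapped. The myogenic factor MYOD1 had 0 reads in all libraries, and MYOG had at most 1 in any library. The list of 6 skeletal or smooth muscle markers summed to 8.67 to 20.3 RPM with siLIX1L and 21.6 to 23.9 RPM in the controls. Its part in the DES counts was not tested.

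NES (ENSG00000132688, chromosome 1) encodes nestin, a filament of neural stem cells and of some activated stellate cells in rodents. It had 4, 6 and 13 reads in siLIX1L 1, 2 and 3, against 4 and 29 in control 1 and 2. Control 2 was the highest library in RPM for NES, as it was for DES, VIM, SYNM, KRT8, KRT18 and, with only 4 reads, KRT19. The pooled rate ratio was 0.484 (exact 95% counting interval 0.271 to 0.849), the groups overlapped, and edgeR gave an adjusted p of 0.436.

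GFAP (ENSG00000131095, chromosome 17), the filament of astrocytes, had 6, 9 and 16 reads in siLIX1L 1, 2 and 3, against 7 and 9 in the controls. The pooled rate ratio of 1.35 had a counting interval of 0.714 to 2.63, so no difference was detectable at this depth. The coding genes CCDC103 and FAM187A lie on the opposite strand within the GFAP gene over 2230 bases, and the sources used here do not say whether strand was kept. GFAP reads are therefore uncertain. Glial markers were also low, with 0 reads of SOX10, which specifies neural crest glia, and at most 1 read of S100B in any library. The neural and glial list of 8 genes summed to 32.6 to 47.7 RPM with siLIX1L and 18.2 to 43.8 RPM in the controls, mostly from MBP, which had 474 to 582 reads with siLIX1L and 179 to 533 in the controls.

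LMNA (ENSG00000160789, chromosome 1, 156082573 to 156140089, plus strand) encodes lamins A and C by alternative splicing, which gene-level reads do not separate. It had 20.0, 18.6 and 20.1 FPKM in siLIX1L 1, 2 and 3, against 15.7 and 16.9 FPKM in control 1 and 2. Every siLIX1L library was above both controls, the only tested member whose groups did not overlap, and 23.5% of all genes tested were separated in this direction. The mean was 19.6 ± 0.836 FPKM (SD, n = 3) with siLIX1L and 16.3 ± 0.880 FPKM (SD, n = 2) in the controls, 1.20-fold higher. This did not pass, with a difference of 0.25 (SE 0.15, limma adjusted p = 0.320).

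The level of LMNA over that of LMNB1, which encodes lamin B1, was 6.82, 7.31 and 4.67 in siLIX1L 1, 2 and 3, against 4.57 and 3.43 in control 1 and 2. The lowest siLIX1L value lay just above the higher control. Over LMNB2, the gene of lamin B2, the ratio was 4.40, 4.26 and 7.28 with siLIX1L, against 4.48 and 4.39 in the controls, and the groups overlapped. SiLIX1L 3 was the low library in the first ratio and the high one in the second.

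KRT18 (ENSG00000111057, chromosome 12, 52948871 to 52952901, plus strand) encodes the type I keratin of simple epithelia. It had 35.6, 32.8 and 42.2 FPKM in siLIX1L 1, 2 and 3, against 41.9 and 115.8 FPKM in control 1 and 2. The siLIX1L libraries and control 1 lay close together and control 2 stood alone. The mean was 36.8 ± 4.83 FPKM (SD, n = 3) with siLIX1L and 78.9 ± 52.3 FPKM (SD, n = 2) in the controls, 2.14-fold lower. The difference of -0.91 (SE 0.41) did not pass (limma adjusted p = 0.207).

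KRT8 (ENSG00000170421, chromosome 12, 52897187 to 52949954, minus strand), the type II partner of KRT18, followed the same pattern. It had 5.17, 4.60 and 6.24 FPKM in siLIX1L 1, 2 and 3, against 4.55 and 12.0 FPKM in the controls. Its mean was 5.34 ± 0.833 FPKM (SD, n = 3) with siLIX1L and 8.27 ± 5.25 FPKM (SD, n = 2) in the controls, with a difference of -0.43 (SE 0.35, limma adjusted p = 0.461).

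Both keratin results rest on control 2. Control 2 held 2.76-fold as much KRT18 and 2.63-fold as much KRT8 as control 1, ratios met or passed by 103 and 129 of the 6464 genes tested, against a median of 0.96 over all of them. VIM was 2.38-fold and LMNA 1.08-fold. Without control 1, KRT18 fell by 1.63 (limma adjusted p = 0.0172) and KRT8 fell by 1.04 (limma adjusted p = 0.0258), in a comparison where 24.1% of all genes passed and where the lone control is assumed to vary like the siLIX1L libraries. Without control 2, the difference was -0.19 for KRT18 (limma adjusted p = 0.533) and 0.18 for KRT8 (limma adjusted p = 0.526). The summed level of the 12 stellate markers was also higher in control 2, at 7469 RPM there and 2841 RPM in control 1. Most of that sum was collagen. COL1A1 had 1813 RPM in control 1 and 4815 RPM in control 2, COL3A1 275 and 1043 RPM, and COL5A1 300 and 966 RPM. TAGLN (212 and 163 RPM), ACTA2 (39.0 and 35.4 RPM) and RGS5 (5.18 and 2.79 RPM) were instead lower in control 2. The part of these markers in the keratin values was not tested.

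By level, the 2 partner keratins were nearly equal in the controls, and KRT8 was the higher with siLIX1L. The level of KRT8 over that of KRT18 was 1.32, 1.28 and 1.35 in siLIX1L 1, 2 and 3, against 0.990 and 0.942 in control 1 and 2. The ratio thus differed little within each group although control 2 held over 2.6-fold more of both than control 1, and the groups did not overlap. Of single genes tested, 46.5% showed no overlap. On the deposited FPKM the ratio was 0.140 to 0.148 with siLIX1L and 0.103 to 0.109 in the controls, where the span of KRT8 is 21.7 and that of KRT18 2.38 times the transcript. Per kb of the principal transcript, of 9 exons for KRT8, the ratio was 1.35 to 1.42 with siLIX1L and 0.994 to 1.05 in the controls.

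**Figure D4:**
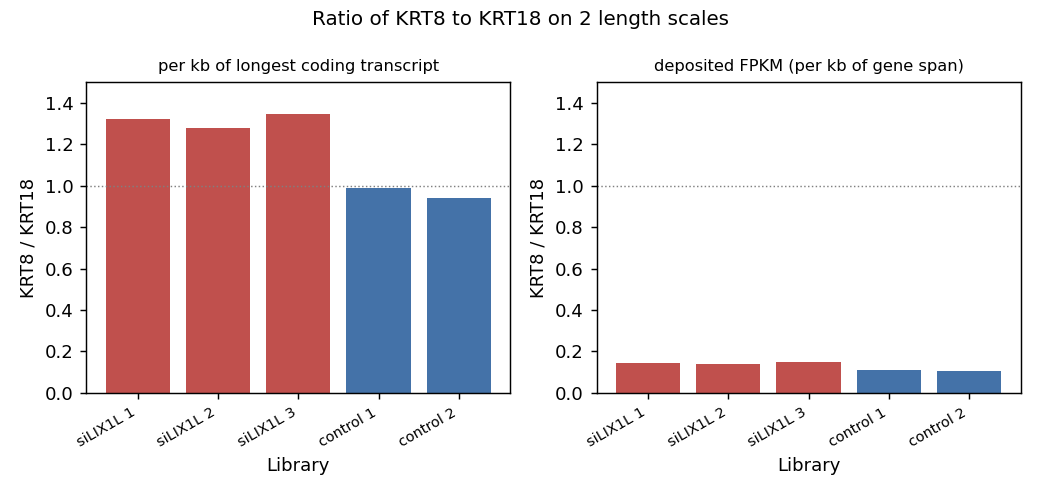
Ratio of KRT8 to KRT18 in each library, per kb of the longest coding transcript (left) and on the deposited FPKM (right), with siLIX1L in red and control in blue and a dotted line at 1. Left, siLIX1L lies at 1.28 to 1.35 and control at 0.942 to 0.990; right, all libraries lie at 0.103 to 0.148.

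Counts of KRT8 and KRT18 carry an uncertainty of their own. The genes overlap by 1084 bases on opposite strands. The annotation also names 50 pseudogenes after KRT8 and 67 after KRT18, and the sources used here do not state how reads shared with such copies were counted.

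KRT7 (ENSG00000135480, chromosome 12), the type II keratin of ducts, had 22, 16 and 54 reads in siLIX1L 1, 2 and 3, against 61 and 40 in control 1 and 2. SiLIX1L 1 and 2 were lowest, and siLIX1L 3 lay between the controls. The pooled rate ratio was 0.633 (exact 95% counting interval 0.472 to 0.847), and edgeR gave a log2 fold change of -0.73 (adjusted p = 0.407). KRT7 overlaps the hair keratin gene KRT86 on the same strand and the antisense gene KRT7-AS, so some reads may belong to them.

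KRT19 (ENSG00000171345, chromosome 17), the small type I keratin of bile duct cells, had 3, 0 and 2 reads in siLIX1L 1, 2 and 3, against 2 and 4 in the controls. All libraries were near the 3 reads that a count of 0 allows, so no ratio is given. Of the 4 simple epithelial keratins, KRT8 and KRT18 were thus abundant and the duct keratins scarce. Of the other keratins, 4 reached the minimum level, all above KRT7 in every library. KRT34, a hair keratin, stood at a level of 10.9, 12.02 and 30.5 in siLIX1L 1, 2 and 3, against 24.9 and 3.996 in the controls. KRT80 stood at 8.85 to 11.9 with siLIX1L and 5.52 to 7.44 in the controls, KRT10 at 4.46 to 7.64 and 6.18 to 11.99, and KRT81 at 2.68 to 7.07 and 4.70 to 5.33, in the same order of groups.

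Most genes of an epithelial programme were scarce. Of 17 epithelial genes, 0 reached the minimum of 1 FPKM in 2 libraries and 7 had at most 3 reads in every library, among them CDH1 (E-cadherin), GRHL2 and OVOL2. The list summed to 12.9 to 18.2 RPM with siLIX1L and 12.1 to 31.5 RPM in the controls, highest in control 2, and 77.8 to 94.1% of it came from MAL2, SPINT1 and CLDN4. MAL2, a membrane trafficking protein, stood at a level of 2.45 to 3.54 with siLIX1L and 1.72 to 3.32 in the controls, near SYNM. SPINT1, a protease inhibitor, had 40 to 54 reads with siLIX1L and 31 to 213 in the controls, and CLDN4, a tight junction claudin, 37 to 52 with siLIX1L and 37 to 111 in the controls. EdgeR called 0 of 4 and DESeq2 1 of 15, ELF3, lower, where DESeq2 called 4.91% of all genes lower. Hepatocyte markers were nearly absent, with at most 3 reads in every library for 6 of 7, ALB (albumin) included, and sums of 1.52 to 3.31 RPM with siLIX1L and 3.29 to 6.45 RPM in the controls. Of 6 cholangiocyte markers, CFTR and SCTR had at most 1 read and EPCAM at most 4 in any library. That list summed to 65.3 to 108.04 RPM with siLIX1L and 37.7 to 55.0 RPM in the controls, mostly from SOX9, a factor that other cells also use. Endothelial markers summed to 2.96 to 6.75 RPM with siLIX1L and 2.41 to 5.38 RPM in the controls, and macrophage markers to 5.67 to 9.40 RPM with siLIX1L and 10.4 to 37.6 RPM in the controls. By limma 0 genes of the 7 marker lists passed, where 7 stellate, 2 cholangiocyte, 1 macrophage and 1 muscle marker were tested. An unadjusted limma p under 0.05 was found for 3 of these, and for 1785 of all 6464 genes tested. With edgeR 1 of 11 stellate markers, ACTA2 (α smooth muscle actin), fell, where 0.883% of all genes were called lower. With DESeq2 4 of 11 stellate markers fell: ACTA2, COL1A2, DCN and LUM. So did 1 of 5 macrophage markers, CD14, and 1 of 5 muscle markers, ACTC1, while 1 of 5 cholangiocyte markers, SOX9, rose. DESeq2 called 0 genes of the other 3 marker lists, and 4.99% of all genes higher and 4.91% lower.

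Genes that work with filaments were next compared by list, and the 2 tested genes with the smallest p in each list are named. That choice favours genes whose groups do not overlap. In 5 lists with tested members 0 genes passed limma's threshold in either direction, where 1.87% of all genes passed and the median difference of all genes was -0.005. The lists held 8, 5, 10, 11 and 5 tested genes. An unadjusted limma p under 0.05 was found for 10 of these, and for 1785 of all 6464 genes tested. Of 61 other intermediate filament genes, 8 were tested and 21 had no read in any library. The median difference was 0.10, and edgeR called 0 of 15 and DESeq2 0 of 40. KRT80, a widely expressed type II keratin, had 1.498, 1.63 and 2.01 FPKM in siLIX1L 1, 2 and 3, against 1.26 and 0.934 FPKM in the controls (limma adjusted p = 0.145). INA, the neuronal filament internexin, had 1.58, 1.67 and 1.48 FPKM with siLIX1L, against 1.41 and 0.410 FPKM in the controls (limma adjusted p = 0.211). Neither pair of groups overlapped, as in 23.5% of all genes tested in this direction.

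Of 16 linkers, 5 were tested, with 4 positive differences and a median of 0.06. The largest was PLEC, which encodes plectin, the linker of vimentin and keratin to actin, adhesions and the nucleus. It had 15.5, 17.9 and 12.2 FPKM in siLIX1L 1, 2 and 3, against 8.24 and 8.76 FPKM in the controls. The groups did not overlap, as in 23.5% of all genes tested in this direction. The mean was 1.79-fold higher, a difference of 0.76 (SE 0.20) that did not pass (limma adjusted p = 0.0789). MACF1, a linker of actin and microtubules, had 1.06, 1.19 and 1.07 FPKM with siLIX1L, against 0.733 and 0.594 FPKM in the controls (limma adjusted p = 0.0939). EdgeR called 0 of 10 linkers. DESeq2, which called 4.99% of all genes higher, called 3 of 16 higher: PLEC, MACF1 and the desmosomal DSP.

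Of 16 lamin partners and processing enzymes, 10 were tested, with 4 positive and 6 negative differences and a median of -0.13. EMD, which encodes emerin, a lamin-binding protein of the inner nuclear membrane, had 26.0, 21.7 and 21.0 FPKM in siLIX1L 1, 2 and 3, against 42.3 and 33.0 FPKM in the controls. The groups did not overlap, as in 23.0% of all genes tested in this direction, and the difference of -0.69 did not pass (limma adjusted p = 0.0933). BANF1, which bridges chromatin and lamina, had 107.2, 90.3 and 80.6 FPKM with siLIX1L, against 126 and 137.6 FPKM in the controls (limma adjusted p = 0.164). EdgeR called 0 of 16, and DESeq2 called 1 of 16, EMD, lower, where it called 4.91% of all genes lower.

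ZMPSTE24, the protease that matures prelamin A, was singled out after its values were seen. It had 614, 615 and 2969 reads in siLIX1L 1, 2 and 3, against 2786 and 2264 in control 1 and 2. SiLIX1L 1 and 2 were low and siLIX1L 3 lay above both controls in reads and between them in FPKM. SiLIX1L 3 was 4.06-fold above the mean of siLIX1L 1 and 2, a ratio met or passed by 12 of the 6464 genes tested. Its difference was -0.83 (SE 0.44, limma adjusted p = 0.273). SiLIX1L 3 thus differed from siLIX1L 1 and 2 in opposite directions for VIM and ZMPSTE24. In FPKM it lay below both controls for VIM but between them for ZMPSTE24.

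Of 17 kinases, chaperones and turnover factors, 11 were tested, with a median difference of 0.04. AURKB, the mitotic kinase that phosphorylates vimentin at cleavage, had 11.8, 10.4 and 13.4 FPKM in siLIX1L 1, 2 and 3, against 17.4 and 23.1 FPKM in the controls (limma adjusted p = 0.0850). HSPB1, a small heat shock protein that binds filaments, had 43.0, 38.6 and 58.5 FPKM with siLIX1L, against 67.9 and 116.6 FPKM in the controls (limma adjusted p = 0.113). Neither gene's groups overlapped, as in 23.0% of all genes tested in this direction. EdgeR called 0 of 17, and DESeq2 called 2 of 17, AURKB and HSPB1, lower, where it called 4.91% of all genes lower.

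Of 14 genes of the mesenchymal programme, 5 were tested, with a median difference of -0.07. FN1 had 33.8, 37.9 and 37.0 FPKM in siLIX1L 1, 2 and 3, against 27.7 and 23.7 FPKM in the controls (limma adjusted p = 0.137). THY1, a surface glycoprotein of fibroblasts, had 8.66, 8.55 and 8.92 FPKM with siLIX1L, against 10.5 and 18.2 FPKM in the controls (limma adjusted p = 0.159). FN1 was higher and THY1 lower in every siLIX1L library than in both controls, as were 23.5% and 23.0% of all genes tested. EdgeR called 0 of 13, and DESeq2 called 1 of 14, CDH11, lower, where it called 4.91% of all genes lower.

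**Figure D5:**
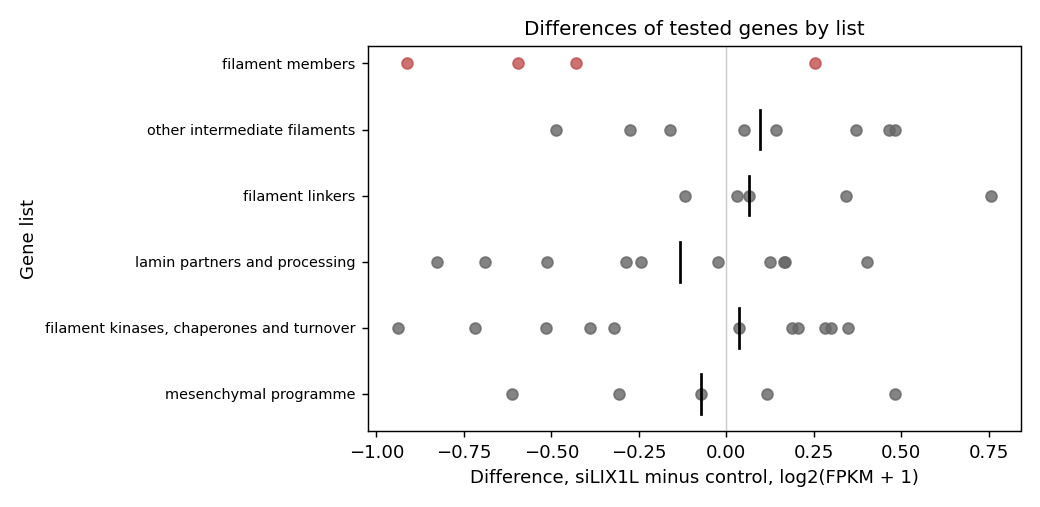
Difference between siLIX1L and control on the log2(FPKM + 1) scale for each tested gene, by list, with filament members in red and a black line at the median of each other list. The 4 tested members run from -0.91 for KRT18 to 0.25 for LMNA. PLEC, at 0.76, is the highest point, and no gene shown passed limma's threshold.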

How the data were processed

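RNA of LX-2 cells was sequenced from 3 libraries with LIX1L siRNA and 2 with control siRNA, grouped by their titles. The authors deposited FPKM for 19936 genes per library, per the file headers, and for siLIX1L 3 also the raw read count and the gene length. The submitters' processing notes list Bowtie (0.12.2), which places no read over a splice junction, and mm8, a mouse build at odds with the human Ensembl IDs. The sources used here name no counting tool. The deposited lengths equal gene spans of GENCODE 29 on GRCh38 for 98.2% of 19926 genes. Coordinates are from that annotation and symbols from a table that matched 19808 IDs.

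FPKM times length gave whole reads in 100% of values (tolerance 0.01 reads), and in siLIX1L 3 these matched the count the authors deposited at each of 19936 genes. Levels used the longest coding transcript. The test was limma 3.58.1 (R 4.3.3, trend and robust eBayes, two-sided, Benjamini-Hochberg) on log2(FPKM + 1) over 6464 genes with at least 1 FPKM in 2 libraries; this understates changes of low genes. EdgeR 4.0.16 (quasi-likelihood) and DESeq2 1.42.0 (Wald) were run on recovered reads. All were also run on simulated reads with the same small spread set for every gene. That run does not show how they perform at the spread between these libraries. Intervals and floors (3 reads) cover counting error only.

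The members and lists were chosen with earlier results of these data known. Named are all members, LIX1L, in each list the 2 genes with the smallest p, and the 3 nearest profiles to the member with the highest mean level. Other genes (ZMPSTE24, LMNB1, LMNB2, further keratins, and markers or list members that carry or lack a list's signal) lie outside this rule and were chosen after their values were seen. Promoter windows are from RefSeq (GRCh38.p14), which matched 5 of the 10 members. Other settings were the minimum level, pseudocount, scaling, the replicate number as a block, each library left out, a fitted loess curve on mRNA length and GC taken out, and the mean of siLIX1L 1 and 2 used as 1 library.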

Additional observations from a re-analysis of the deposited data

How the results depend on the processing

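The 4 tested members stayed below the threshold in 14 of 15 other settings; without control 1, 2 of them passed (0 to 2 over the settings that leave out 1 library). VIM ran from -1.21 (without control 1) to 0.021 (without control 2). KRT18 stayed negative (-1.63 to -0.19) and LMNA positive (0.20 to 0.40) in all 15. VIM turned to 0.0073 with the replicate number as a block, 0.021 without control 2 and 0.0073 without siLIX1L 3, and KRT8 turned to 0.18 without control 2. Replicate number 3 holds siLIX1L 3 alone, so the block gives the same differences as leaving that library out and is not a separate result. The calls without control 1 were at -1.63 for KRT18 and -1.04 for KRT8. The count of all genes past the threshold, 121, was 0 without a minimum level, with siLIX1L 1 and 2 averaged and after removal of a trend with mRNA length and GC (3407, 953 and 1508 at an unadjusted p under 0.05 by limma), 233 with quantile normalization, 188 with edgeR and 1673 with DESeq2. It was 0 to 1517 with 1 library left out, 1517 without control 1 and 258 without control 2, and 0 without any 1 siLIX1L library. With the replicate block it was 94 genes. Deviations from the group mean in same-numbered libraries had r = -0.12 and -0.10 across 6464 genes, which are not independent. With 2 controls, the deviations of control 1 and control 2 mirror each other, so this check cannot decide whether the numbers pair libraries. The cause of the changes between settings was not tested.

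Per kb of deposited gene length, the class shares moved to 48.9 and 48.0% for mesenchymal and muscle filaments, 35.1 and 42.4% for simple epithelial keratins, 15.9 and 9.56% for the lamina, and 0.087 and 0.066% for neural-type filaments (siLIX1L and control), since gene spans exceed transcripts by unequal factors. With the principal transcript, a length chosen after seeing the data, all 8 mean shares moved by less than 1 SD. Without 1 library they ran from 28.3 to 41.9% and 34.1 to 41.3%, 20.3 to 27.1% and 27.4 to 37.4%, 37.7 to 44.6% and 21.3 to 38.5%, and 0.015 to 0.028% and 0.016 to 0.025%, in the same order. Depth limits DES, NES, GFAP and KRT19, at no more than 29 reads in any library.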
